A study of Oryza sativa with 12 samples.

Results

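NAC45, WRKY71 and OsC3H54 are genes of 3 transcription factor or zinc finger families of rice (Oryza sativa), and their transcripts were followed in seedling shoots with and without alkali salts. The members are all probe sets that the array annotation assigns to these names, by symbol or synonym. They are 4 probe sets of 57258 and 3 genes of the 17905 measured, since WRKY71 has 2 probe sets. The names were chosen by their alkali minus control signals in earlier results of the same arrays, where they were among the genes higher under alkali. NAC45 and WRKY71 came from the Jijing88 comparison, and which genotype led to OsC3H54 is not known. The alkali effects that entered this choice are given below as values with no test.

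The groups are K83 with alkali salts, K83 control, Jijing88 with alkali salts and Jijing88 control, with 3 Affymetrix arrays each. K83 and Jijing88 are the rice genotypes named in the labels, which say no more about them. Seedlings 7 days old were moved to new hydroponic medium with alkali salts at 50 mM, or without them, and the shoots were taken 24 h later. Each array held total RNA from a pool of 10 shoots and is labelled a biological replicate, and the number of arrays limits the precision. Which salts were used and at what pH is not in the labels, and no neutral salt was tested, so high pH, sodium and osmotic stress cannot be told apart. Time in control medium was the same, and each genotype had its own control.

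NAC, WRKY and CCCH proteins belong to large plant families. NAC and WRKY factors bind short DNA elements in the promoters of stress and defence genes, while many plant CCCH proteins, whose zinc fingers hold 3 cysteines and a histidine, bind RNA or DNA. In rice, NAC45 (also ONAC045) responds to drought, salt and the stress hormone abscisic acid, and plants that overexpress it tolerate drought and salt better. WRKY71 represses gibberellin-induced alpha-amylase genes in the aleurone of the seed and takes part in defence against bacteria. OsC3H54 is named for its CCCH fingers, and no function is given for it here. In the RefSeq table (assembly ASM3414082v1) NAC45 is LOC4349650 on chromosome 11, WRKY71 is LOC4328512 on chromosome 2 and OsC3H54 is LOC4344566 on chromosome 8. The table lists 1 transcript each for NAC45 and WRKY71 and 9 for OsC3H54, and which of the 9 its probe set reads was not examined.

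Signals are on the log2 scale, where a difference of 1 is a 2-fold change. They are not comparable between probe sets as amounts of RNA. Array medians were 5.12 to 5.18, and arrays of a group correlated at 0.993 to 0.997 across probe sets. Of 4 measured shoot marker genes 3 lay above the array median, and the small subunit of Rubisco (OsrbcS, 14.53) and the chlorophyll-binding proteins LHCP (13.77) and CAB2R (13.49) were bright. Of root markers 4 of 6 lay above it, of seed markers 4 of 10 and of meristem markers 3 of 13. Alkali changed 1 root marker and no seed, meristem or shoot marker in K83, and 2 shoot markers and 1 seed marker in Jijing88. Over all genes 5.04% rose and 7.82% fell in K83, and 8.22% rose and 7.35% fell in Jijing88. The part of the marker changes in the results was not tested. Control probes for large-subunit ribosomal RNA read 9.68 in replicate 1, 7.87 in replicate 2 and 9.44 in replicate 3 of Jijing88 alkali, against 7.84 to 8.21 in Jijing88 control. None of the member probe sets ran in that order in Jijing88 alkali. The brighter WRKY71 probe set ran in the reverse order, with 9.95, 10.52 and 10.34 in replicates 1, 2 and 3. OsC3H54 was also highest in replicate 2, with 7.27, 8.06 and 7.10 in replicates 1, 2 and 3. With 3 arrays nothing is read from these orders. The part of the ribosomal RNA difference between arrays in the results was not tested.

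In K83, where its change was not the reason for its choice, NAC45 rose under alkali. Its signal was 6.61, 6.93 and 6.79 in K83 alkali replicates 1, 2 and 3, against 5.41, 5.97 and 6.11 in K83 control. The alkali arrays lay above the control arrays with no overlap. The means were 6.78 ± 0.16 with alkali and 5.83 ± 0.37 in control (SD, n = 3 each). The difference was 0.95 ± 0.22 (SE), or 1.93-fold, with an adjusted p of 0.0228 in the limma fit. In bulk shoots, more RNA per cell and more cells that express the gene cannot be told apart. The call was lost without K83 alkali replicate 2 (adjusted p = 0.091) or 3 (0.0751), and without K83 control replicate 1 (0.0853) or 2 (0.055), while the difference stayed between 0.74 and 1.09.

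In Jijing88 NAC45 read 7.89, 7.62 and 7.52 in alkali replicates 1, 2 and 3, against 5.98, 6.07 and 6.86 in control. The groups did not overlap, and control replicate 3 was well above the other control arrays. The means were 7.68 ± 0.19 with alkali and 6.30 ± 0.49 in control (SD, n = 3 each), a difference of 1.38 or 2.60-fold.

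NAC45 differed between the genotypes under alkali. K83 alkali averaged 6.78 and Jijing88 alkali 7.68, and every K83 array was below every Jijing88 array. The difference was -0.90 ± 0.22 (SE), with an adjusted p of 0.0146 in limma. The Jijing88 alkali arrays also entered the choice of NAC45, so this test is not independent of that choice, which favours a lower value in K83. The call was lost without K83 alkali replicate 1 (-0.82, adjusted p = 0.0606) or Jijing88 alkali replicate 1 (-0.79, adjusted p = 0.0649). In control medium K83 averaged 5.83 and Jijing88 6.30, and the ranges overlapped (-0.47 ± 0.22, SE, adjusted p = 0.217). The alkali effect itself was smaller by 0.43 ± 0.31 (SE) in K83, a difference that did not pass the test (adjusted p = 0.589). The order of the NAC45 means was Jijing88 alkali, K83 alkali, Jijing88 control and K83 control. The K83 alkali arrays and the Jijing88 control arrays overlapped, as did the arrays of the control groups.

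**Figure D1:**
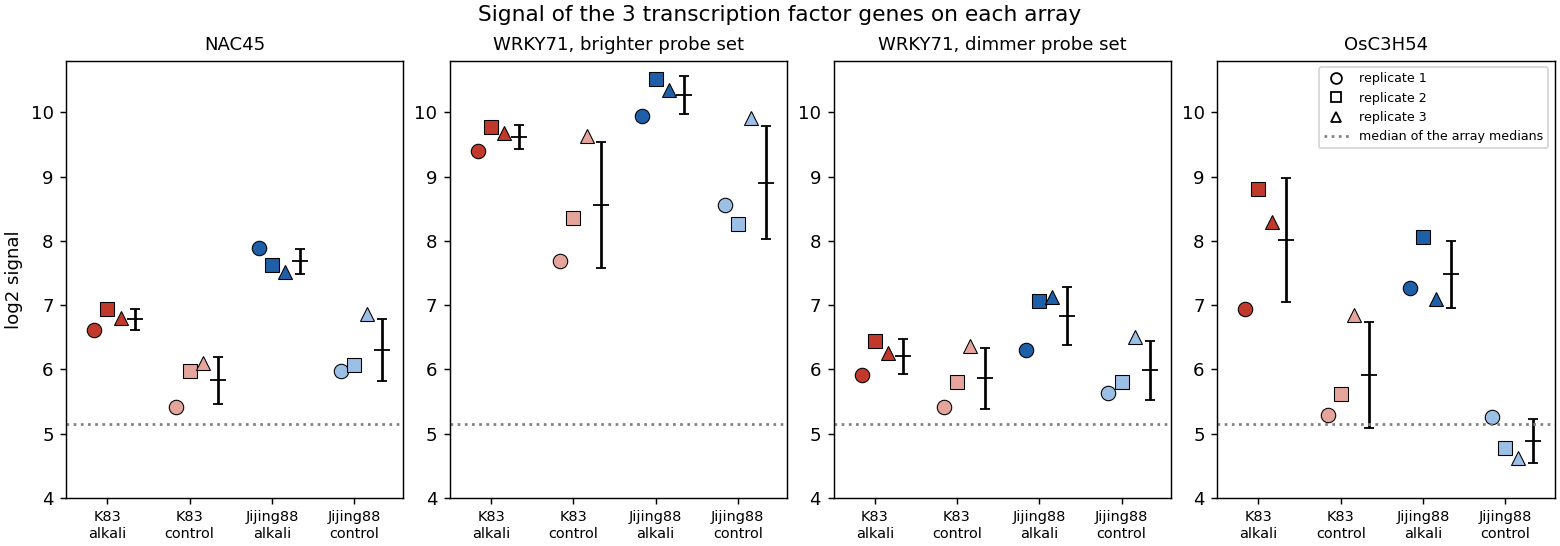
Log2 signal (vertical axis) of the 4 member probe sets in each group (horizontal axis). Each symbol is 1 array, with its shape giving the replicate number, the bar beside it is the mean with the SD of 3 arrays, and the dotted line is the median of the array medians (5.15). NAC45 and OsC3H54 separate alkali from control in both genotypes, while the WRKY71 control replicates 3 (9.63 in K83 and 9.91 in Jijing88) reach up to the alkali arrays.

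Of the members, WRKY71 had the widest spread among control arrays. On its brighter probe set the signal was 9.40, 9.77 and 9.67 in K83 alkali replicates 1, 2 and 3, against 7.69, 8.36 and 9.63 in K83 control. Control replicate 3 lay within the range of the alkali arrays, so the groups overlapped. The means were 9.62 ± 0.19 with alkali and 8.56 ± 0.99 in control (SD, n = 3 each). The difference of 1.06 ± 0.44 (SE), or 2.08-fold, did not pass the limma test over all probe sets (adjusted p = 0.197). Without K83 control replicate 3 it was 1.59 with an adjusted p of 0.0351, and over the arrays left out in turn it lay between 0.62 and 1.59.

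In Jijing88 the brighter WRKY71 probe set read 9.95, 10.52 and 10.34 in alkali replicates 1, 2 and 3, against 8.55, 8.26 and 9.91 in control. The lowest alkali array lay just above the highest control array, which again was replicate 3. The means were 10.27 ± 0.29 with alkali and 8.91 ± 0.88 in control (SD, n = 3 each), a difference of 1.36 or 2.57-fold. It was 1.86 without control replicate 3 and no less than 1.04 without any other array.

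The dimmer WRKY71 probe set had a smaller difference in each genotype. It read 5.91, 6.44 and 6.25 in K83 alkali replicates 1, 2 and 3, against 5.42, 5.80 and 6.36 in K83 control, so the groups overlapped. The K83 difference was 0.34 ± 0.28 (SE), or 1.27-fold, with a limma adjusted p of 0.565. In Jijing88 it read 6.31, 7.06 and 7.12 with alkali, against 5.63, 5.80 and 6.51 in control, a difference of 0.85 or 1.80-fold with overlapping groups. The probe sets correlated at 0.925 over the 12 arrays and at 0.883 in their deviations from the group means. Their order within a group was not always the same, with replicate 2 highest among the Jijing88 alkali arrays on the brighter probe set and replicate 3 on the dimmer.

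Between genotypes no WRKY71 comparison passed the limma test in the main fit. Under alkali the brighter probe set averaged 9.62 in K83 and 10.27 in Jijing88, with every K83 array below every Jijing88 array (-0.65 ± 0.44, SE, adjusted p = 0.406). With only the alkali arrays in the fit the adjusted p was 0.0241, a fit that leaves the spread of the control arrays out of the error. The Jijing88 alkali arrays in it also entered the choice of WRKY71. On the dimmer probe set K83 alkali averaged 6.20 and Jijing88 alkali 6.83, with overlapping arrays (adjusted p = 0.175). With the replicate number as a block in the limma fit this difference (-0.63) had an adjusted p of 0.0178. In control the brighter probe set averaged 8.56 in K83 and 8.91 in Jijing88 (adjusted p = 0.707), and the sign of that difference changed without K83 control replicate 1 (0.087) or Jijing88 control replicate 3 (0.15). The alkali effect differed between the genotypes by -0.31 ± 0.63 (SE, adjusted p = 0.871), an error too wide to show whether they respond alike. Jijing88 alkali stood first in the order of the means, above K83 alkali, and the K83 alkali, Jijing88 control and K83 control arrays overlapped from neighbour to neighbour.

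OsC3H54 had the largest differences of the members in both genotypes. Its signal was 6.94, 8.80 and 8.30 in K83 alkali replicates 1, 2 and 3, against 5.29, 5.61 and 6.85 in K83 control. The groups did not overlap, but alkali replicate 1 (6.94) lay just above control replicate 3 (6.85). The means were 8.01 ± 0.96 with alkali and 5.92 ± 0.83 in control (SD, n = 3 each), a difference of 2.09 or 4.27-fold. In Jijing88 it read 7.27, 8.06 and 7.10 in alkali replicates 1, 2 and 3, against 5.26, 4.77 and 4.62 in control, where the groups lay far apart. The means were 7.48 ± 0.52 with alkali and 4.88 ± 0.34 in control (SD, n = 3 each), a difference of 2.59 or 6.04-fold. The Jijing88 control mean lay below the median of the array medians (5.15), and no detection call was made. A low signal can understate that fold, and a choice of the gene by this effect could overstate it. No bound is read from it.

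Between genotypes OsC3H54 had the higher mean in K83, but neither comparison passed the test. In control K83 averaged 5.92 and Jijing88 4.88, a difference of 1.04 ± 0.46 (SE). The ranges did not overlap, by the small gap between 5.29 in K83 and 5.26 in Jijing88, and the difference did not pass the limma test over all probe sets (limma adjusted p = 0.184). Under alkali K83 averaged 8.01 and Jijing88 7.48, with overlapping arrays (0.54 ± 0.46, SE, adjusted p = 0.529). The alkali effects differed by -0.50 ± 0.65 (SE, adjusted p = 0.782), and this difference was 0.037 without K83 alkali replicate 1. The order of the means was K83 alkali, Jijing88 alkali, K83 control and Jijing88 control, in which only the alkali groups overlapped as neighbours.

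Over the members, the alkali effect in K83 was tested for 3 probe sets, and 1 of them, NAC45, rose, where 2.61% of all probe sets rose. The genes tested were chosen for a rise in Jijing88 under the same treatment, so that share is not a rate expected for them. Groups did not overlap in K83 for NAC45 and OsC3H54, against 12.4% of all probe sets with the alkali arrays higher, a count from which nothing is read for OsC3H54, whose K83 values may have led to its choice. In Jijing88 the groups did not overlap for NAC45, OsC3H54 and the brighter WRKY71 probe set, against 10.2% of all probe sets, a comparison that the choice of genes had used. Under alkali 1 of the 4 member probe sets, NAC45, was lower in K83 than in Jijing88, where 7.25% of all probe sets were lower, and for NAC45 and the brighter WRKY71 probe set the groups did not overlap, against 14.8%. In control limma called 0 of 4, where 11.6% of all probe sets were called, and 1 of 4 (OsC3H54) had an unadjusted p under 0.05. OsC3H54 was also the 1 member probe set whose control groups did not overlap, higher in K83, as were 15.9% of all probe sets. For the difference between the alkali effects limma called 0 of 4 at an adjusted and 0 of 4 at an unadjusted p under 0.05, where 0.629% of all probe sets were called. The genotype comparisons use the same arrays as the choice of the genes, so they are not independent of it.

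Control replicate 3 stood apart from the other control arrays for WRKY71 in both genotypes. It exceeded the mean of control replicates 1 and 2 by 1.61 in K83 and by 1.50 in Jijing88, at percentiles 99.9 and 99.6 of all probe sets. The dimmer probe set repeated this, with 0.75 in K83 and 0.79 in Jijing88. WRKY24, which represses abscisic acid and gibberellin responses in aleurone cells, showed it as strongly (1.87 in K83 and 1.66 in Jijing88). For NAC45 the excess was 0.41 in K83 and 0.84 in Jijing88. OsC3H54 had it in K83 (1.40) and not in Jijing88 (-0.40). Among other NAC genes, OsNAC3 had 0.96 in K83 and 1.58 in Jijing88, OsNAC4 had 0.67 in K83 and 1.36 in Jijing88, and OsNAC6 had 0.55 in K83 and 0.59 in Jijing88. The dimmer OsNAC6 probe sets gave -0.034 and 0.20 in K83, and -0.15 and 0.0038 in Jijing88. Control replicate 3 was the highest control array of both genotypes for 4 of the 7 NAC genes besides NAC45, 2 of the 5 WRKY genes besides WRKY71 and 9 of the 49 CCCH genes besides OsC3H54, against 13.8% of all probe sets. The other NAC genes ranged down to -0.48 in K83 (OsNAC5) and -0.095 in Jijing88. Over all probe sets replicate 1 was the highest of both genotypes for 12.6% and replicate 2 for 11.6%. The labels give no batch, day or harvest time, and what these arrays share was not tested.

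**Figure D2:**
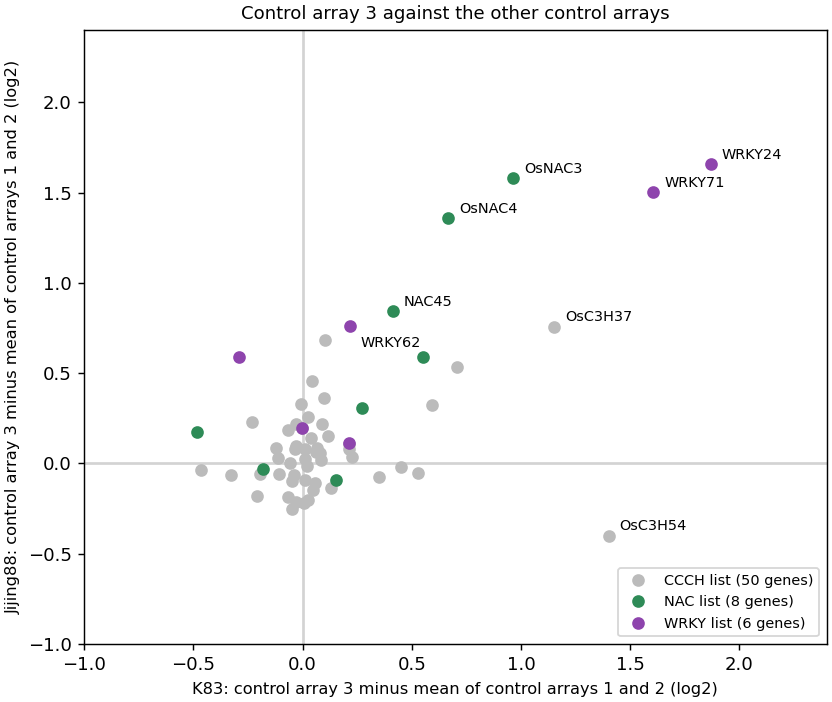
Log2 signal of control replicate 3 minus the mean of control replicates 1 and 2, in K83 (horizontal axis) and in Jijing88 (vertical axis), for the genes of the NAC, WRKY and CCCH lists. Each point is 1 gene on its brightest probe set, and colours give the family. WRKY71 (1.61 and 1.50) and WRKY24 (1.87 and 1.66) lie at the upper right, NAC45 is higher in both genotypes, and OsC3H54 is higher in K83 only.

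The other named members of each family mostly stayed near 0. The annotation names 10 NAC genes, of which 8 were measured. Of the 7 besides NAC45, 1 rose and 0 fell in K83, where 5.04% of all genes rose, with a median difference of 0.086 against -0.042 over all genes. In Jijing88 1 rose and 0 fell, where 8.22% of all genes rose, with a median of 0.21 against -0.014. In both genotypes the gene was OsNAC6 (SNAC2), a NAC factor induced by drought, salt and cold. OsNAC6 read 11.09, 11.24 and 11.22 in K83 alkali, against 10.26, 10.37 and 10.87 in K83 control (0.68 ± 0.17, SE, limma adjusted p = 0.0342). It read 11.16, 11.34 and 11.34 in Jijing88 alkali, against 10.53, 10.30 and 11.00 in Jijing88 control (0.67 ± 0.17, SE, limma adjusted p = 0.0301). These groups did not overlap, but single arrays decide the calls. The K83 call was lost without K83 alkali replicate 1 (adjusted p = 0.0681), 2 (0.111) or 3 (0.108), or without K83 control replicate 1 (0.123) or 2 (0.13). The Jijing88 call was lost without Jijing88 alkali replicate 2 (0.0847) or 3 (0.0932), or without Jijing88 control replicate 1 (0.0949) or 2 (0.143). It was also lost with only the Jijing88 arrays in the fit (adjusted p = 0.0581). These values are from the brightest OsNAC6 probe set. With the mean over a gene's probe sets, 0 of the 7 genes were called in Jijing88. OsNAC4 differed by 0.80 in K83 and 0.72 in Jijing88, neither past the test (limma adjusted p = 0.241 and 0.295). OsNAC3 differed the other way, by -0.81 in K83, where its alkali arrays lay below its control arrays (limma adjusted p = 0.229), and by -0.20 in Jijing88 (limma adjusted p = 0.825). Like NAC45, 2 of the 7 were lower in K83 than in Jijing88 under alkali, where 13.2% of all genes were lower, OsNAC2 by -0.93 (limma adjusted p = 0.000197) and OsNAC5 by -0.65 (limma adjusted p = 0.0161). In control OsNAC2 was also lower in K83 (-0.73, limma adjusted p = 0.00131), and OsNAC5 differed by -0.52 (limma adjusted p = 0.0564).

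All 6 named WRKY genes were measured. Of the 5 besides WRKY71, limma called 0 in each genotype, and 1 had an unadjusted p under 0.05 in each. Over all genes 33.1% in K83 and 32.8% in Jijing88 had an unadjusted p under 0.05. The median difference was 0.024 in K83 and -0.090 in Jijing88. WRKY24 came closest to WRKY71. It read 8.68, 8.57 and 8.77 in K83 alkali, against 6.51, 7.51 and 8.88 in K83 control (1.03 ± 0.50, SE, limma adjusted p = 0.272), with control replicate 3 above every alkali array. In Jijing88 it read 9.09, 9.07 and 9.14 with alkali, against 7.27, 6.97 and 8.78 in control (1.43 ± 0.50, SE, limma adjusted p = 0.108), with no overlap. Over the arrays left out in turn the K83 difference lay between 0.47, without K83 control replicate 1 (limma adjusted p = 0.639), and 1.66, without K83 control replicate 3 (limma adjusted p = 0.0428). The Jijing88 difference lay between 1.07, without Jijing88 control replicate 2 (limma adjusted p = 0.352), and 1.98, without Jijing88 control replicate 3 (limma adjusted p = 0.0175). The unchanged 1.43 also passed without K83 control replicate 3 (limma adjusted p = 0.0341) and with the replicate number as a block (limma adjusted p = 0.042). WRKY51, the aleurone partner of WRKY71, differed by -0.19 in K83 and -0.090 in Jijing88, with neither past the test.

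Of the 53 CCCH genes named in the annotation 50 were measured, 49 besides OsC3H54. In K83 3 of the 49 rose and 5 fell, where 5.04% of all genes rose and 7.82% fell, and the median was -0.11. In Jijing88 4 rose and 0 fell, where 8.22% rose and 7.35% fell, and the median was 0.025. OsC3H37 had the next largest difference after OsC3H54 in Jijing88. It read 10.37, 11.16 and 10.72 in K83 alkali, against 8.77, 9.33 and 10.20 in K83 control (1.32 ± 0.34, SE, limma adjusted p = 0.0386). It read 10.91, 11.84 and 11.35 in Jijing88 alkali, against 9.04, 8.71 and 9.64 in Jijing88 control (2.23 ± 0.34, SE, limma adjusted p = 0.00139). The groups did not overlap in either genotype. The K83 call of OsC3H37 was lost without K83 alkali replicate 2 (adjusted p = 0.152) or 3 (0.103), K83 control replicate 1 (0.135) or 2 (0.127), Jijing88 alkali replicate 3 (0.054) or Jijing88 control replicate 1 (0.0517), with a variance trend and robust moderation (0.115), and with only the K83 arrays in the fit (0.0609).

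OsC3H2 (OsDOS), which delays leaf senescence, rose by 1.44 in K83 (limma adjusted p = 0.000177) and by 0.65 in Jijing88 (limma adjusted p = 0.0185). Its Jijing88 call was lost without Jijing88 alkali replicate 1 (adjusted p = 0.0699) or Jijing88 control replicate 1 (0.0542) or 2 (0.0947). OsC3H35 rose on its brightest probe set by 0.71 in K83 (limma adjusted p = 0.00199) and by 0.75 in Jijing88 (limma adjusted p = 0.000954). Neither of its dimmer probe sets passed in K83, with 0.30 (limma adjusted p = 0.202) and 0.19 (limma adjusted p = 0.373). In Jijing88 these gave 0.59 (limma adjusted p = 0.00975) and 0.24 (limma adjusted p = 0.23), in the same order. OsC3H33 rose by 0.97 in Jijing88 (limma adjusted p = 0.00503), and its difference in K83 was 0.17 (limma adjusted p = 0.68). The difference between these effects did not pass the test (limma adjusted p = 0.183). Its dimmer probe set passed in neither genotype, with 0.60 in Jijing88 (limma adjusted p = 0.0795) and 0.33 in K83 (limma adjusted p = 0.38). Of the genes that fell in K83, OsC3H11 had the smallest p, with -0.43 (limma adjusted p = 0.0153), a call lost without K83 alkali replicate 2 (adjusted p = 0.0724) or 3 (0.0539) or K83 control replicate 1 (0.0542) or 2 (0.0739). No measured NAC, WRKY or CCCH relative was called for the difference between the alkali effects, where 1.03% of all genes were called, and 0 of 7, 0 of 5 and 11 of 49 had an unadjusted p under 0.05, against 17.7% of all genes.

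**Figure D3:**
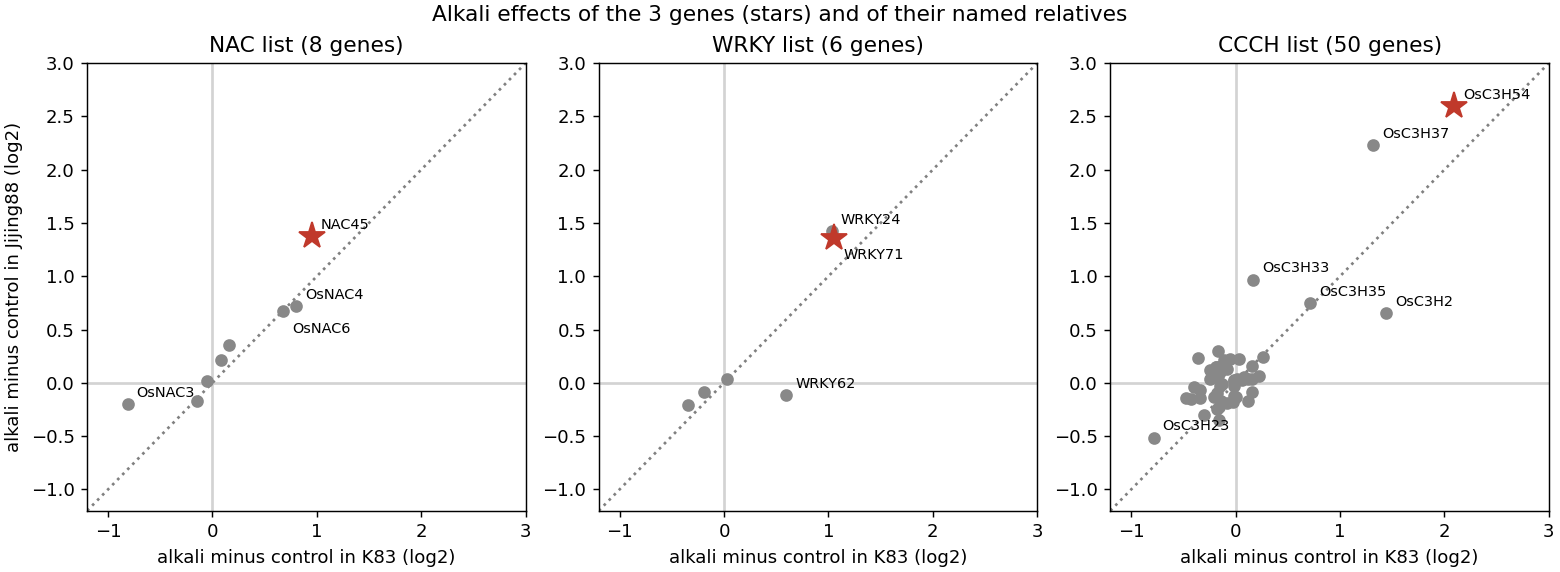
Alkali minus control on the log2 scale in K83 (horizontal axis) and in Jijing88 (vertical axis) for the measured genes of the NAC, WRKY and CCCH lists. Each grey point is 1 gene on its brightest probe set, stars are NAC45, WRKY71 and OsC3H54, and the dotted line marks equal effects. Most relatives lie near 0, WRKY24 (1.03 and 1.43) lies beside WRKY71, OsNAC6 (0.68 and 0.67) lies between 0 and NAC45, and OsC3H37 (1.32 and 2.23) comes closest to OsC3H54 (2.09 and 2.59).

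Genes reported in rice to respond to the members were read on the same arrays. Transcripts of the late embryogenesis abundant (LEA) protein LEA3-1, listed as LEA19, and of the membrane protein PM1, listed as OsPM19L1, are higher in rice that overexpresses NAC45. LEA19 read 6.88, 6.30 and 6.72 in K83 alkali, against 4.17, 3.90 and 3.63 in K83 control. It rose by 2.73 ± 0.56 (SE, limma adjusted p = 0.0113), with an adjusted p of 0.053 under a variance trend and robust moderation. Its K83 control mean of 3.90 lay below the median of the array medians, and such a low signal can understate a difference. In Jijing88 LEA19 read 3.90, 4.18 and 4.17 with alkali, against 3.73, 4.0 and 6.76 in control. Only control replicate 3 was high (-0.75 ± 0.56, SE, limma adjusted p = 0.512). Both Jijing88 means (4.08 with alkali and 4.83 in control) lay below the median of the array medians. NAC45 was higher in all 3 of these Jijing88 alkali arrays than in any control array, and LEA19 was not. The difference between the LEA19 effects was 3.48 (limma adjusted p = 0.0693). OsPM19L1 rose in both genotypes. It read 7.10, 6.95 and 7.01 in K83 alkali, against 4.30, 4.23 and 4.12 in K83 control (2.80 ± 0.43, SE, limma adjusted p = 0.00197), again from a low control mean of 4.22. It read 9.93, 8.97 and 9.27 in Jijing88 alkali, against 6.45, 6.01 and 8.32 in Jijing88 control (2.46 ± 0.43, SE, limma adjusted p = 0.0031).

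Of the 8 measured LEA and dehydrin genes 6 rose and 0 fell in K83, with a median of 1.28, where 5.04% of all genes rose. In Jijing88 3 rose and 0 fell, with a median of 0.21, where 8.22% of all genes rose. Besides OsPM19L1 these included the seed protein gene EM and the dehydrin gene RAB21. EM rose by 3.28 in K83, from a low control mean of 4.06 (limma adjusted p = 0.000251), and by 2.01 in Jijing88 (limma adjusted p = 0.00427). RAB21 rose by 1.80 in K83 (limma adjusted p = 7.66e-05) and by 1.14 in Jijing88 (limma adjusted p = 0.00139). No LEA gene was called for the difference between the effects, where 1.03% of all genes were called, and 4 of 8 had an unadjusted p under 0.05, against 17.7% of all genes.

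For WRKY71, the reported readouts include defence genes that are raised in plants overexpressing it. They also include alpha-amylase genes and GAMYB, a gibberellin-induced MYB factor, on whose targets it acts in the aleurone. The defence list was built from names and held NH1, NH2, NH3, NH4, NPR4 and PBZ1, so its counts are not of reported readouts alone. Of the 6 measured defence genes limma called 0 in each genotype, with a median of 0.37 in K83 and 0.36 in Jijing88, and 3 in K83 and 2 in Jijing88 had an unadjusted p under 0.05, against 33.1% and 32.8% of all genes in K83 and in Jijing88. NH1 (OsNPR1), the salicylic acid regulator, read 7.61, 7.83 and 7.61 in K83 alkali, against 7.08, 6.92 and 7.36 in K83 control (0.56 ± 0.16, SE, limma adjusted p = 0.0538). It read 8.38, 8.17 and 8.22 in Jijing88 alkali, against 7.79, 7.40 and 8.11 in Jijing88 control (0.49 ± 0.16, SE, limma adjusted p = 0.0838). The groups did not overlap in either genotype, though neither difference passed the test. Of the 6 amylase and GAMYB genes limma called 0 in each genotype, with 1 in K83 and 0 in Jijing88 at an unadjusted p under 0.05, against the same shares of all genes, and GAMYB (GAM1) differed by -0.23 in K83 and -0.084 in Jijing88.

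Counts in other stress factor families are set beside the 5.04% of all genes that rose and 7.82% that fell in K83, the 8.22% that rose and 7.35% that fell in Jijing88, and the 33.1% in K83 and 32.8% in Jijing88 with an unadjusted p under 0.05. Of the 10 named MYB genes, 2 rose and 0 fell in K83, and 5 rose and 0 fell in Jijing88. MYBAS1 rose by 1.36 in K83 (limma adjusted p = 0.000252) and by 1.78 in Jijing88 (limma adjusted p = 2.96e-05), and MPH1 rose by 0.82 in each (limma adjusted p = 0.00273 in K83 and 0.00182 in Jijing88). Of 20 genes with a heat shock factor name 2 rose and 1 fell in K83, and 4 rose and 1 fell in Jijing88. A gene listed as ARD1, which also carries the name HSFA2C, rose on its brighter probe set. The difference was 1.37 in K83 (limma adjusted p = 0.000209) and 1.13 in Jijing88 (limma adjusted p = 0.000493). The dimmer probe set of this gene did not follow, with -0.13 in K83 (limma adjusted p = 0.737) and 0.032 in Jijing88 (limma adjusted p = 0.947). Whether either probe set reads a heat shock factor was not examined. Of 9 AP2/ERF genes limma called 0 in K83, where 1 had an unadjusted p under 0.05, and 1 rose in Jijing88. That gene was DREB2B (0.61, limma adjusted p = 0.0255), a call lost without Jijing88 alkali replicate 1 (adjusted p = 0.0984) or Jijing88 control replicate 1 (0.0775) or 2 (0.113). Of 7 bZIP genes 1 rose in K83 and 0 were called in Jijing88, where 2 had an unadjusted p under 0.05. Of 4 ZFP genes limma called 0 in each genotype, with 2 in K83 and 1 in Jijing88 at an unadjusted p under 0.05.

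The members did not share 1 pattern over the arrays. Over the 12 arrays, which share the group differences, the Pearson correlation was 0.89 between WRKY71 and NAC45, 0.653 between WRKY71 and OsC3H54 and 0.599 between OsC3H54 and NAC45. In the deviations from the group means the values were 0.789, 0.475 and 0.276, in the same order. For WRKY71 and NAC45 control replicate 3 was the highest control array in both genotypes, and OsC3H54 had its highest array in K83 alkali replicate 2.

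The named genes with the most similar pattern differed between the members. They were the 4 with the highest Pearson correlation over the 12 arrays, among 2154 named genes with a mean above the array median. These correlations describe arrays that share the group differences, and carry no test. For NAC45 they were COI1B, a jasmonate receptor (0.989), LOGL9, a cytokinin-activating enzyme (0.967), MSRA5, a methionine sulfoxide reductase (0.961), and ARGOS, an organ size gene (0.96). COI1B averaged 10.99 ± 0.13 in K83 alkali and 10.48 ± 0.13 in K83 control, and 11.44 ± 0.04 in Jijing88 alkali and 10.73 ± 0.20 in Jijing88 control (SD, n = 3 each). Its correlation with NAC45 was 0.92 in the deviations from the group means. The deviations are part of the correlation by which COI1B was picked, so this value is not independent of that choice. MSRA5 had the same order on a much smaller scale, with 10.46 ± 0.01 in K83 alkali and 10.30 ± 0.03 in K83 control, and 10.61 ± 0.03 in Jijing88 alkali and 10.35 ± 0.05 in Jijing88 control (SD, n = 3 each).

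For WRKY71 they were WRKY24 (0.966), OsNAC6 (0.957), the MYB gene OsMyb4, listed as LTR1 (0.947), and SAUR39, a small auxin-induced RNA (0.94). In the deviations from the group means the correlation was 0.958 with WRKY24, 0.981 with OsNAC6, 0.933 with OsMyb4 and 0.864 with SAUR39, and the WRKY71 arrays spread far more in control (SD 0.99 in K83 and 0.88 in Jijing88) than with alkali (SD 0.19 in K83 and 0.29 in Jijing88). SAUR39 averaged 10.57 ± 0.11 in K83 alkali and 9.49 ± 1.02 in K83 control, and 11.14 ± 0.03 in Jijing88 alkali and 9.85 ± 0.98 in Jijing88 control (SD, n = 3 each), a spread in control as wide as that of WRKY71. For OsC3H54 they were the thioredoxin-like gene OsCXXS1 (0.936), the auxin repressor gene IAA2 (0.926), the cation and proton exchanger gene CAX1b (0.914) and a gene listed as AtMAP70-4 (0.906). IAA2 averaged 10.63 ± 0.06 in K83 alkali and 9.56 ± 0.35 in K83 control, and 10.47 ± 0.26 in Jijing88 alkali and 9.40 ± 0.15 in Jijing88 control (SD, n = 3 each). With Spearman's rho in place of Pearson's r, 3 of the 4 genes named for NAC45 stayed among the 4 most alike, and 0 of 4 did for WRKY71 and for OsC3H54, so only the list for NAC45 is steady to that choice.

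**Figure D4:**
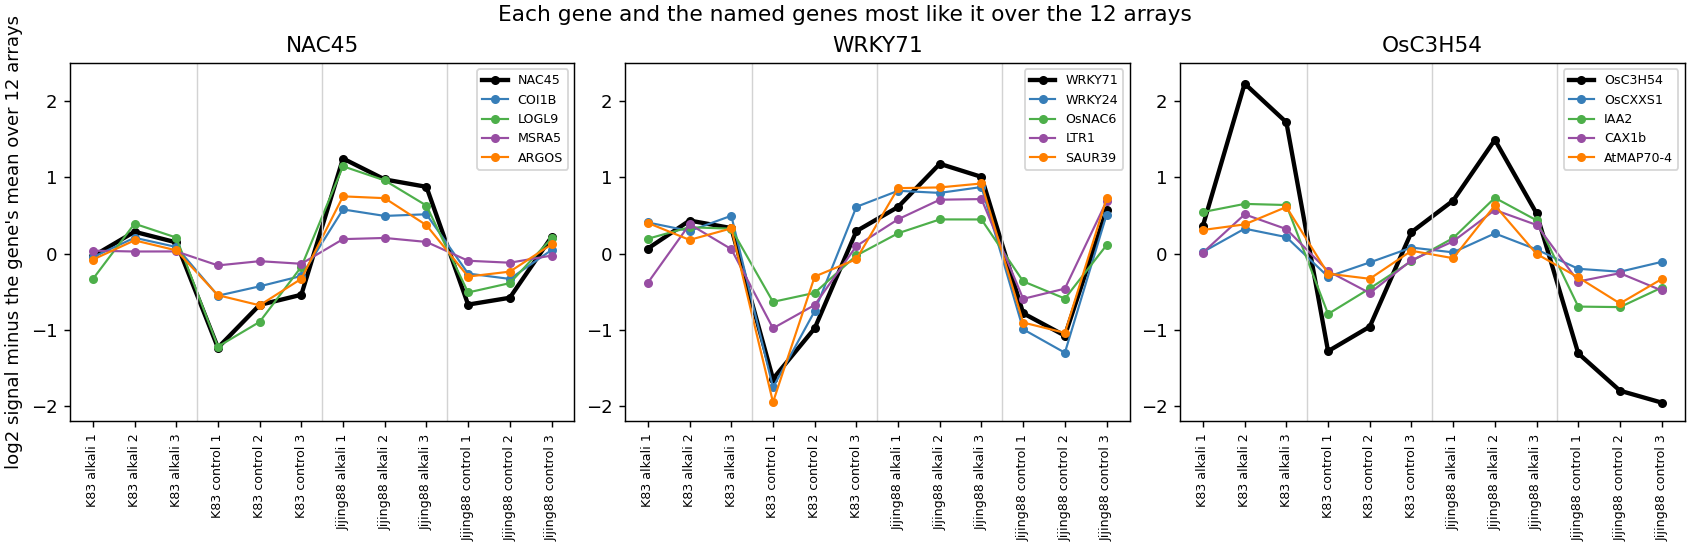
Log2 signal minus each gene's mean over the 12 arrays (vertical axis) on each array (horizontal axis), for NAC45, WRKY71 and OsC3H54 (black) and the 4 named genes with the highest Pearson correlation with each (colours). Lines only join the points of a gene. WRKY24, OsNAC6 and LTR1 share the low control replicates 1 and 2 and the higher control replicates 3 of WRKY71. SAUR39 does so in Jijing88, while in K83 control it reads -1.95, -0.30 and -0.07 in replicates 1, 2 and 3. MSRA5 follows NAC45 over a range far narrower than that of NAC45.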

How the data were processed

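The authors deposited log2 values, a signal for each probe set on each array. RMA and limma are the tools in the submitters' processing notes, which give no version of either. The log base is not stated and was inferred from their RMA-like range, and no further normalization was applied. The genome build behind the array is not given in the sources used here. Of the table's probe sets, 123 controls were left out and 57258 tested. The annotation and the RefSeq table assigned 22436 probe sets to 1 gene, 95 to several and 34727 to none, and 2451 of 17905 genes had a name. For a gene with several probe sets, the brightest on average over the 12 arrays was used.

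Groups come from the labels' genotype and stress entries. Differences were tested with limma 3.58.1 in R 4.3.3, in a fit of 4 group means to all 12 arrays with 8 residual degrees of freedom. P-values are two-sided, with Benjamini-Hochberg adjustment across the whole array, and an adjusted p under 0.05 is a change. The pipeline was tested on simulated data.

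The members and gene lists were chosen with earlier results of these data known. Lists were built from name patterns, so genes without a name are missing. Named from a list were up to 3 called genes with the smallest p in each alkali effect, the reported readouts of the members, and relatives whose values a result needed, which were chosen after their values were seen. Alternatives were median centring, quantile normalization, a variance trend with robust moderation, only the groups compared, dim probe sets left out, the replicate number as a block, the mean over a gene's probe sets, and each array left out in turn.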

Additional observations from a re-analysis of the deposited data

How the results depend on the processing

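Every tested difference of NAC45, WRKY71 and OsC3H54 kept its direction under median centring, quantile normalization, the variance trend, the dim filter, the fit of only the groups compared, the replicate block and the mean over probe sets. The 1 call that changed among them for a gene read from its brightest probe set was WRKY71 between genotypes under alkali, at -0.65, which passed with only the groups compared. The labels do not say what a replicate number shares across groups, so the numbers were not taken as pairs in the main fit. Arrays with equal numbers were partly alike. Of 18 same-numbered pairs of arrays 7 had deviations from the group means that correlated above 0.1. The highest value was 0.216, between the control replicates 3. Of 12 arrays 9 correlated best, among arrays of other groups, with an array of their own number. What a number shares was not tested. The block gave 3872 called probe sets in K83, against 3700 without it, and 5075 in Jijing88, against 4789. With the replicate block the NAC45 alkali effect in K83 had an adjusted p of 0.0207 and that of WRKY71 0.0841, and the dimmer WRKY71 probe set between genotypes under alkali (-0.63) had 0.0178.

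Leaving out each array in turn gave an alkali effect in K83 of 0.74 to 1.09 for NAC45 and of 0.62 to 1.59 for WRKY71. Between genotypes under alkali NAC45 gave -0.98 to -0.79. In control WRKY71 gave -0.88 to 0.15 on the brighter probe set (0.087 without K83 control replicate 1) and -0.37 to 0.14 on the dimmer (0.098 without K83 control replicate 1, 0.14 without Jijing88 control replicate 3). The difference between the alkali effects was -0.81 to 0.23 for WRKY71 (0.016 without Jijing88 control replicate 2, 0.23 without K83 control replicate 3) and -0.90 to 0.037 for OsC3H54 (0.037 without K83 alkali replicate 1). The cause of these turns was not tested.

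Called relatives without each array numbered 0 to 2 in K83 and 0 to 3 in Jijing88 for NAC, 0 to 1 in each for WRKY, and 2 to 10 in K83 for CCCH, where 8 were called in all arrays. In Jijing88 the NAC count was 0 with only the groups compared or the mean over probe sets and 2 with the replicate block, the WRKY count was 1 with the replicate block, and the CCCH count was 7 with dim probe sets left out, against 4. Called probe sets over the whole array were 1721 to 4693 in K83 (3700 with all arrays), and 2666 to 5463 in Jijing88 (4789 with all arrays, 2768 with only the groups compared). For the difference between the effects they were 107 to 646, with 360 over all arrays, 626 with dim probe sets left out and 656 with the variance trend. Low signal limits OsC3H54 in Jijing88 control, and 3 arrays per group limit all calls.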
